A study of Mus musculus with 115 samples.

Results

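The contactin gene Cntn2 showed a pair of levels in the mammary fat pads of 115 backcross mice. The members were chosen by the measured Cntn2 values themselves: the single probe set that reads Cntn2 was split by k-means clustering into 2 levels, started at its lowest and highest values. The high level held 62 of the 115 mice and the low level held 53. All were untreated females aged 8 weeks from 1 cross, in which hybrids of FVB/N, an inbred laboratory strain of Mus musculus, and Spret/Ei, a strain of Mus spretus, were mated back to FVB/N. Both levels share the cross, sex, age, tissue and chow diet, and no group carried an engineered allele or received an agent. Per the labels, arrays were run on 2 plates and mice belong to 3 lymph clusters, whose basis is not stated. Each mouse was a separate animal with 1 Affymetrix array. Values are log2 signals of the robust multi-array average (RMA), which rank a probe set between mice but do not rank different genes against each other.

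Cntn2 encodes contactin-2, a cell adhesion molecule of the immunoglobulin superfamily that is held to the membrane by a glycosylphosphatidylinositol anchor. In myelinated nerve it lies at the juxtaparanode, beside the node of Ranvier, where it binds Caspr2 (Cntnap2) and helps to gather voltage-gated potassium channels of the Kv1 family. In a backcross of this kind each mouse is, at an autosomal locus, either homozygous for the FVB/N allele or heterozygous for the Spret/Ei allele. Neighbouring loci on a chromosome are usually inherited together, and crossing over in the hybrid parent separates loci more often the farther apart they lie. Genotypes were not used here, so which level goes with which allele was not tested. An array reads an allele by hybridization to probes designed on 1 sequence, and a difference in RNA amount and a difference in probe binding between the alleles cannot be told apart in these values.

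The labelled tissue was checked first. The adipocyte genes Adipoq, Plin1 and Fabp4 had mean log2 values of 12.01 ± 0.29, 12.22 ± 0.29 and 12.51 ± 0.17 (SD, n = 115), and the epithelial genes Krt18, Krt8 and Epcam had means of 9.46 ± 0.93, 10.62 ± 0.97 and 9.14 ± 0.96 (SD, n = 115). These are levels of single probe sets with no reference tissue beside them. Array medians lay between 6.16 and 6.45, correlations between pairs of arrays lay between 0.928 and 0.992, and the median SD of a probe set between mice was 0.238. For arrays, their number limits the precision. In bulk tissue, fewer cells of a type and less RNA per cell cannot be told apart.

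Cntn2 itself averaged 6.45 ± 0.977 (SD, n = 115) on the log2 scale. Among the 53 low mice its values ran from 4.90 through a median of 5.46 to 6.31, with a mean of 5.47 ± 0.31 (SD, n = 53). Among the 62 high mice they ran from 6.44 through a median of 7.28 to 8.23, with a mean of 7.29 ± 0.38 (SD, n = 62). The levels do not overlap because the split was made on these values, so their difference of 1.82 (3.54-fold) is a description with no test. The boundary lay at 6.38. The 5 mice just below it had 6.311, 6.177, 6.023, 6.014 and 5.955, and the 5 just above it had 6.445, 6.595, 6.611, 6.683 and 6.684. Few mice lay between the levels, with 12 of the 115 between 5.8 and 6.8. A mixture of 2 normal distributions of equal variance placed each mouse as k-means did, which restates the same values and is no support of its own.

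**Figure D1:**
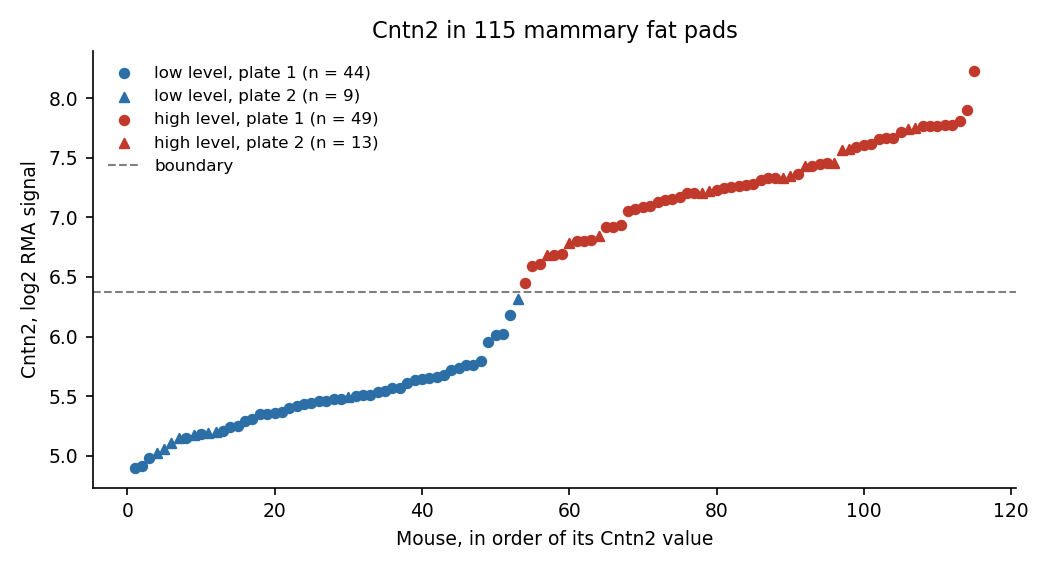
Log2 RMA signal of Cntn2 (vertical axis) in each of the 115 mice, placed from left to right by its value. Blue points are the 53 low and red points the 62 high mice, circles are plate 1, triangles are plate 2, and the dashed line is the boundary at 6.38. Both plates hold mice of both levels, and the curve is steep around the boundary, where few mice lie.

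Both levels were present on each plate and in each lymph cluster. Plate 1 held 49 high and 44 low mice, with mean Cntn2 values of 7.29 ± 0.39 (SD, n = 49) and 5.50 ± 0.28 (SD, n = 44). Plate 2 held 13 high and 9 low mice, with means of 7.30 ± 0.35 (SD, n = 13) and 5.30 ± 0.40 (SD, n = 9). High mice made up 52.3% of lymph cluster 1 (23 high and 21 low), 57.4% of cluster 2 (35 and 26) and 40% of cluster 3 (4 and 6). Array plate and lymph cluster entered the model as covariates.

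Promoters are shown for Cntn2 and for the 3 genes whose own split matched that of Cntn2 in the most mice. The genes were chosen by that match, and shared regulation through these promoters was not tested. Each is a window of 300 bases at the gene's start, most of it upstream, from RefSeq (GRCm38.p6), 5′ to 3′ on the gene's strand, and capitals mark a GC box (GGGCGG on either strand).
Cntn2, chr1:132542891-132543190, minus strand: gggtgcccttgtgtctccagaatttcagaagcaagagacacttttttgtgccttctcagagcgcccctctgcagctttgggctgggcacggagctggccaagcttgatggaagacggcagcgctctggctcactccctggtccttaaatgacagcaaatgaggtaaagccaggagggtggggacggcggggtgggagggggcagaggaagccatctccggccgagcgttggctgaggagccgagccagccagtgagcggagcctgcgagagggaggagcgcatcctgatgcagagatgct
Trmt1l, chr1:151428292-151428591, plus strand: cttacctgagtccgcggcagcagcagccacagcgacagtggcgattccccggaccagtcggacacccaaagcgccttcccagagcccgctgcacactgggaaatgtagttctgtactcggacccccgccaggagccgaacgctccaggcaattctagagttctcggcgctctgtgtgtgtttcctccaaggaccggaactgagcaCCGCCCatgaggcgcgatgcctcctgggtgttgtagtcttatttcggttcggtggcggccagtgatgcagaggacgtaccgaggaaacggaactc
BC034090, chr1:155244483-155244782, minus strand: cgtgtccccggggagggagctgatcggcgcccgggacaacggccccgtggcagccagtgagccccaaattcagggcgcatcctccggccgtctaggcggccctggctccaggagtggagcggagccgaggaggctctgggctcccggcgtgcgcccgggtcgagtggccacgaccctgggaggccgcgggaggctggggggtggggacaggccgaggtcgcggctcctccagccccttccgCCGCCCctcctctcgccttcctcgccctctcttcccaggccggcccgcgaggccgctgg
Cyb5r1, chr1:134405531-134405830, plus strand: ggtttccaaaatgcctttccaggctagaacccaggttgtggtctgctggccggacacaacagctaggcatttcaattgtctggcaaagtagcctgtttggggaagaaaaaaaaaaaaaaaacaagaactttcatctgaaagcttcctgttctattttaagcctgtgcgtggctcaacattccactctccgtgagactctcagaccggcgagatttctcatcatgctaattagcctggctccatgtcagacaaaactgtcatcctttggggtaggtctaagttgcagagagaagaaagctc

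The Cntn2 promoter held 13 CpG dinucleotides, at 61.3% G and C, and no GC box, CCAAT box (CCAAT) or TATA box (TATAAA) on either strand. The Trmt1l and BC034090 windows each held 1 GC box and neither of the other motifs, with 24 and 32 CpG dinucleotides. The Cyb5r1 window held none of the 3 motifs and 5 CpG dinucleotides. Of 32851 RefSeq promoters of the same length, 35.7% held GGGCGG, 37.4% held CCAAT and 13.6% held TATAAA, and the median number of CpG dinucleotides was 7. These sequences are those of the reference assembly and do not show the Spret/Ei allele.

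The question put to the whole array was which other genes differed between high and low Cntn2 mice. With limma's moderated test and Benjamini-Hochberg adjustment over 28203 probe sets, 81 passed an adjusted p of 0.05 (0.287% of those tested), 63 higher (0.223%) and 18 lower (0.0638%) in high mice. The calls with a known chromosome lay almost wholly on chromosome 1, which carries Cntn2. There, 61 of 1258 probe sets were called (4.85%), standing for 54 of 1058 genes, with 44 probe sets higher (3.50%) and 17 lower (1.35%). On all other chromosomes 1 of 19852 probe sets was called (0.00504%). A further 19 of 7093 probe sets without a single placed gene were called (0.268%), 18 of them higher (0.254%) and 1 lower (0.0141%), of which 12 had no symbol and 7 had several. Of the 62 calls with a known chromosome, 98.4% were on chromosome 1.

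Weaker differences followed the same pattern. An unadjusted p under 0.05 was reached by 24% of probe sets on chromosome 1, by 6.20% on other chromosomes and by 11.2% of those without a single placed gene. The median absolute difference was 0.053 on chromosome 1 and 0.034 elsewhere, while the median signed difference over all probe sets was 0.002. Differences were mostly small: called probe sets had a median absolute difference of 0.325, the smallest was 0.105, and 5 reached 2-fold. No called probe set separated the levels fully, since in each of the 81 the values of high and low mice overlapped.

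**Figure D2:**
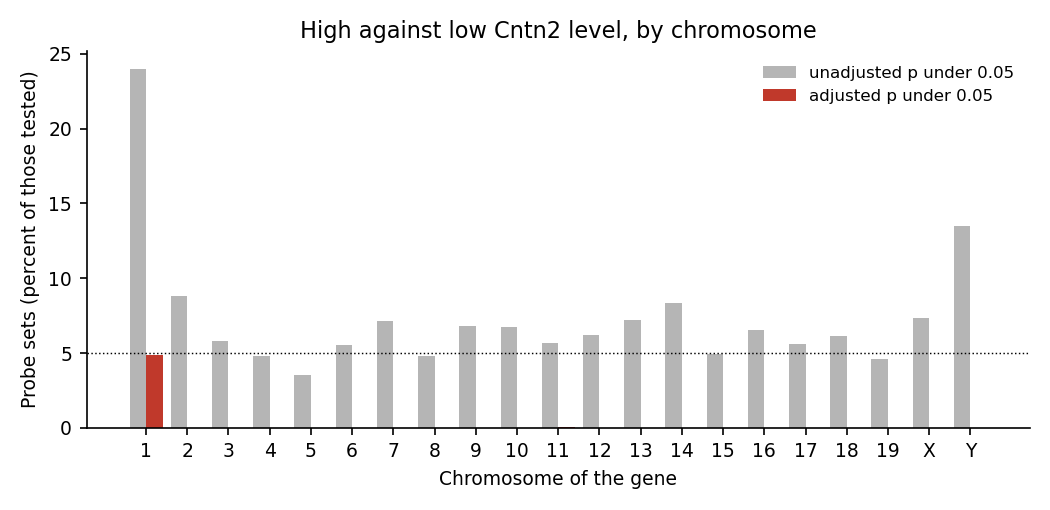
Share of probe sets on each chromosome (vertical axis, percent of those tested) with an unadjusted p under 0.05 (grey) and with an adjusted p under 0.05 (red) between high and low Cntn2 mice. Chromosome 1 stands at 24% and 4.85%; the dotted line marks 5%.

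Position along chromosome 1 was read as gene order alone, since no genome build was named for the arrays. Cntn2 had 611 measured genes before it and 445 after it. Called genes numbered 22 before it and 31 after it, and Csprs, a multi-copy gene, had no place in the order. The nearest called genes were Tmcc2, 4 genes before Cntn2, and Snrpe, 9 genes after it. The farthest were Cflar, which encodes an inhibitor of caspase-8 activation, 382 genes before, and Ifi202b, 296 genes after. Of the 3 probe sets of Cflar 1 was called (0.24), and the others differed by 0.084 and 0.005; Uck2, at 206 genes after Cntn2, was called in 1 of 2. On the later side the share of called probe sets was 23.1% in genes 1 to 25, 11.8% in 26 to 50 and 9.3% in 51 to 100. It was then 13.1% in 101 to 150, 5.45% in 151 to 200, 4.72% in 201 to 300 and 0 of 160 in 301 to 445. On the earlier side it was 8%, 16%, 10.9% and 5.77% in the bands 1 to 25, 26 to 50, 51 to 100 and 101 to 150. It was then 0 of 53 from 151 to 200, 2.68% from 201 to 300 and 1.10% from 301 to 611. The share was therefore higher near Cntn2, on both sides, than at both ends of the chromosome. The fall was uneven, and calls did not form an unbroken block. In the band from the 51st to the 100th gene after Cntn2, 8 of the 12 called probe sets read a single gene, Hmcn1, which had 77 probe sets.

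**Figure D3:**
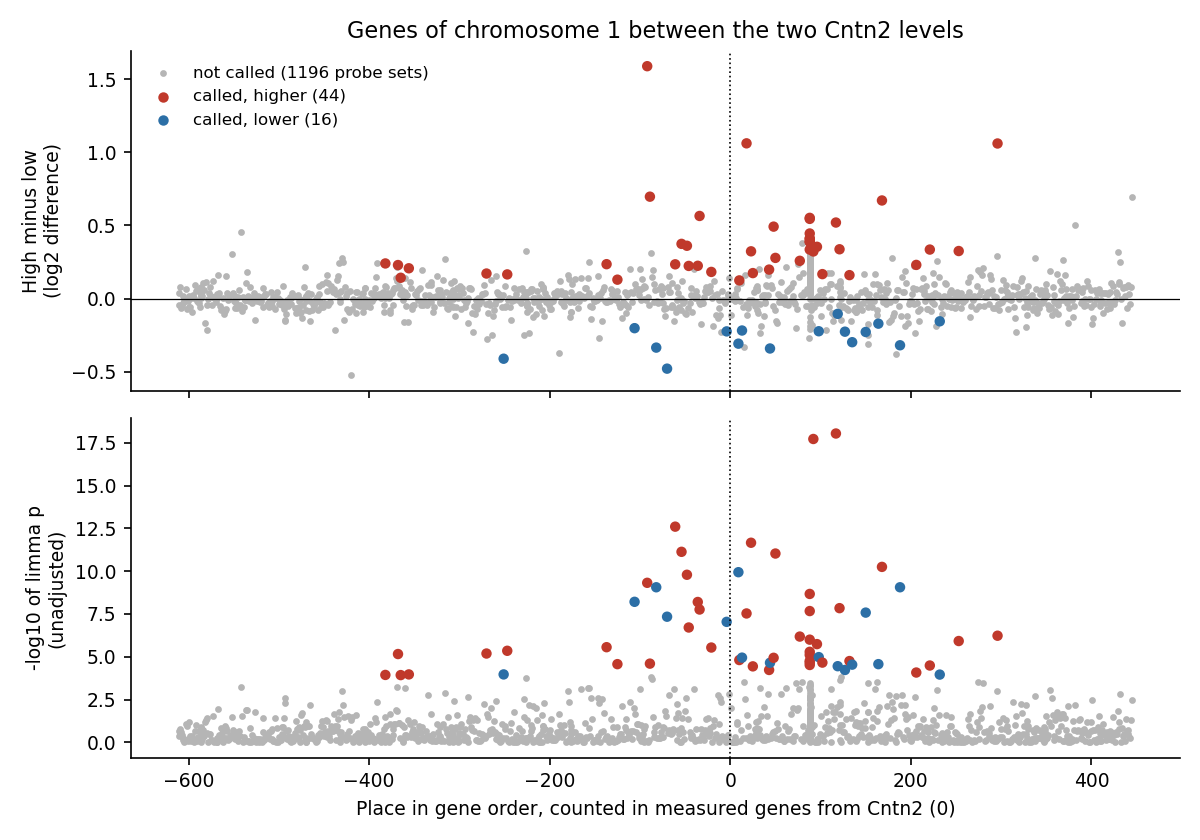
Log2 difference between high and low Cntn2 mice (upper panel) and −log10 of limma's unadjusted p (lower panel) for each placed probe set of chromosome 1, against its place in gene order counted from Cntn2 at 0. Red points are the 44 called higher, blue points the 16 called lower and grey points the rest; called probe sets crowd within about the middle of the plotted order, on both sides of Cntn2, and the column of points at 88 is Hmcn1.

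Among the close neighbours of Cntn2 a few were called. Of the 20 nearest named genes, 10 on each side, 3 were called (15%, beside 4.85% on chromosome 1 and 0.287% over all probe sets) and 6 had an unadjusted p under 0.05 (30%, beside 24% on chromosome 1). Tmcc2, which encodes a transmembrane and coiled-coil protein, ran from 5.81 through 6.32 to 6.94 in low and from 5.71 through 6.14 to 6.66 in high mice (lowest, median, highest). Its log2 difference was −0.23 (SE 0.039, adjusted p = 8.35e-05), and the levels overlapped over most of their range. Snrpe, which encodes the SmE protein of the spliceosome's core, ran from 9.16 through 10 to 10.41 in low and from 9.02 through 9.67 to 10.26 in high mice, a difference of −0.31 (SE 0.044, adjusted p = 3.27e-07). Zc3h11a, a zinc finger gene with a role in mRNA export, was higher by 0.12 in high mice (SE 0.027, adjusted p = 0.00783), a call lost after repeated quantile normalization (adjusted p = 0.199). Tmem81, 1 gene before Cntn2, differed by 0.14 (SE 0.044, adjusted p = 0.25) and was not called. With mean levels of cell type lists as further covariates it differed by 0.17 (adjusted p = 0.0275) and was called. Nfasc, which encodes the axonal adhesion molecule neurofascin, differed by −0.11 (SE 0.042, adjusted p = 0.498) and did not pass. Mfsd4a, with −0.23 (SE 0.080, adjusted p = 0.416), did not pass either. Mdm4, which encodes a p53 inhibitor, differed by 0.01 with a 95% interval of −0.07 to 0.09.

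The largest rises among named genes were in Serpinb11, Chil1 and Ifi202b. Serpinb11, a clade B serpin gene, ran from 3.31 through 4.47 to 7.97 in low and from 3.97 through 6.45 to 9.71 in high mice, a difference of 1.59 (SE 0.233, adjusted p = 1.11e-06, 3.01-fold). Serpinb10, its neighbour in the same serpin family, ran from 4.75 through 5.55 to 7.59 in low and from 4.81 through 6.29 to 9.91 in high mice, a difference of 0.70 (SE 0.159, adjusted p = 0.0111). Both genes varied widely within each level, and only their centres were set apart. Chil1, which encodes a secreted chitinase-like protein, ran from 5.81 through 7.84 to 10.50 in low and from 7.35 through 8.87 to 11.35 in high mice, a difference of 1.06 (SE 0.178, adjusted p = 3.49e-05). Pkp1, which encodes the desmosomal protein plakophilin-1, was higher by 0.49 (SE 0.107, adjusted p = 0.00594), a call lost on plate 1 alone (0.46, adjusted p = 0.106) and for a slope on the Cntn2 value (adjusted p = 0.0937). The lowest high mouse for Chil1 lay below the median of the low mice, so the levels overlapped widely.

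Markers of epithelium were read beside these 4 genes. The 12 luminal epithelium markers all had a higher mean in high mice, with a median difference of 0.176 and none called, as in several other lists given with the cell types, and their mean log2 level ran from 6.33 through 8.48 to 9.75 in low and from 6.49 through 8.61 to 10.10 in high mice. No marker is at 0 on this scale. With the means of the luminal, white adipocyte, skeletal muscle, B cell and T cell lists as further covariates, the difference was 0.92 for Chil1 (adjusted p = 4.21e-07), 0.41 for Pkp1 (adjusted p = 0.0127), 1.40 for Serpinb11 (adjusted p = 3.07e-08) and 0.67 for Serpinb10 (adjusted p = 0.00826). All 4 kept their call with these covariates, and each difference was smaller than without them. The basal epithelium list was not among the covariates. Whether epithelial content underlies these differences was not tested.

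Among immune genes of chromosome 1, Ifi202b, an interferon-inducible gene of a family with closely similar copies, ran from 5.58 through 7.06 to 10.37 in low and from 6.16 through 8.59 to 9.84 in high mice. Its difference was 1.06 (SE 0.201, adjusted p = 0.00048), and its copies may share signal. The 10 interferon response genes measured, none of them called, had a median difference of −0.145. Whether the Ifi202b difference is tied to an interferon response was not tested. Fcamr, which encodes an Fc receptor for IgA and IgM, was higher by 0.57 (SE 0.093, adjusted p = 2.43e-05). Fmo4, a flavin-containing monooxygenase gene, was higher by 0.67 (SE 0.093, adjusted p = 1.78e-07), and Mgat5, which encodes a glycosyltransferase that branches N-glycans, by 0.37 (SE 0.049, adjusted p = 3.48e-08). Hmcn1, which encodes the extracellular matrix protein hemicentin-1, was called in 8 of its 77 probe sets, with rises of 0.33 to 0.55. The other 69 did not pass. Over all 77 the differences ran from −0.208 to 0.552, so the probe sets of this gene did not all share a sign.

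The falls were smaller than the largest rises. Sctr, which encodes the secretin receptor, ran from 5.94 through 7.06 to 8.09 in low and from 5.56 through 6.56 to 7.50 in high mice, a difference of −0.48 (SE 0.082, adjusted p = 4.97e-05). Phlda3, a p53 target gene whose product restrains Akt, differed by −0.34 (SE 0.077, adjusted p = 0.01; 0.0689 for a slope on the Cntn2 value), and Nifk, which encodes a nucleolar protein that binds Ki-67, by −0.34 (SE 0.050, adjusted p = 1.76e-06). Mogat1, which encodes a monoacylglycerol acyltransferase, differed by −0.41 (SE 0.103, adjusted p = 0.0389), and its call was lost without lymph cluster 3 (adjusted p = 0.065), on ranks (0.0769) and for a slope on the Cntn2 value (0.0638). Csprs, whose probes may read several copies, differed by −0.39 (SE 0.081, adjusted p = 0.00348), and its adjusted p was 0.0551 without lymph cluster 3. Besides Snrpe, the other 4 of the 10 largest falls were Sec16b (−0.30), which acts at endoplasmic reticulum exit sites, Serpinc1 (−0.23), which encodes antithrombin, Tor3a (−0.23), a torsin gene, and Sft2d2 (−0.32), whose product is thought to act in vesicle transport. Without the 5 mice of each level nearest the boundary the adjusted p was 0.0518 for Sec16b and 0.0925 for Tor3a, for a slope on the Cntn2 value it was 0.233 and 0.131, and Tor3a had 0.11 on plate 1 alone and 0.0577 on ranks.

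**Figure D4:**
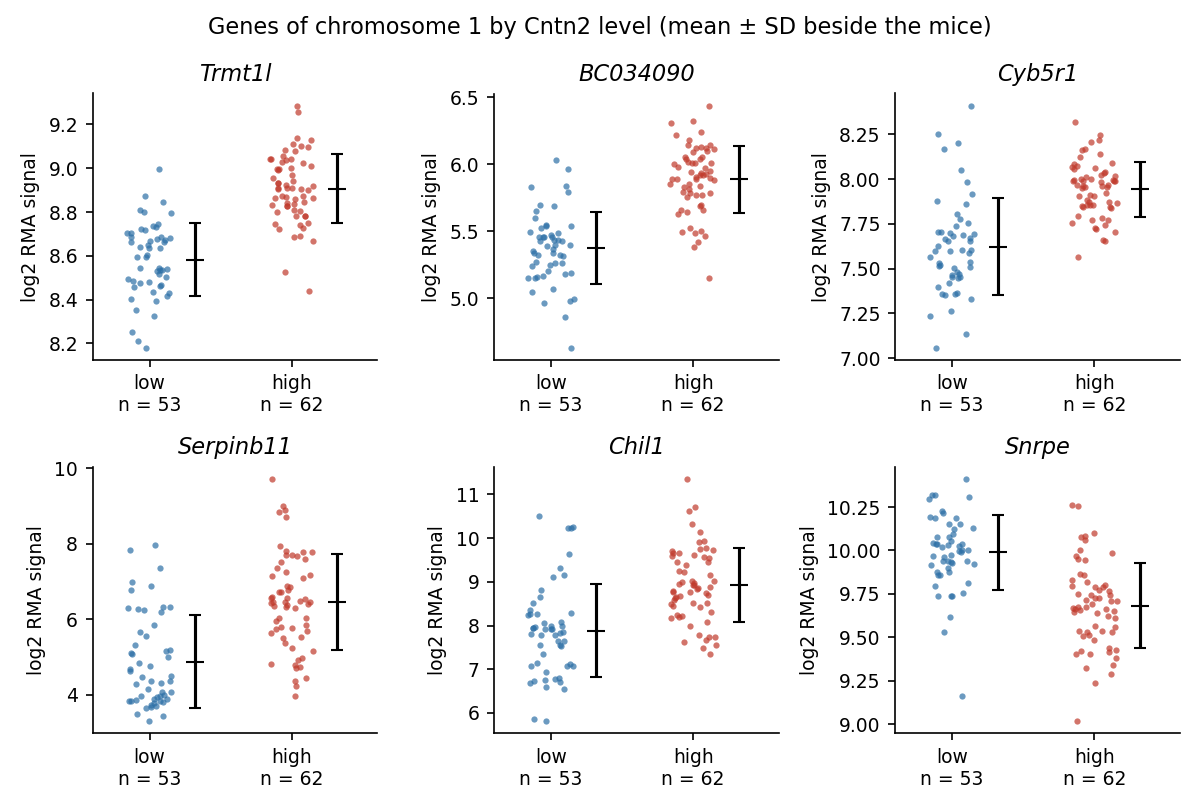
Log2 RMA signal of Trmt1l, BC034090, Cyb5r1, Serpinb11, Chil1 and Snrpe in each low (blue, n = 53) and high (red, n = 62) mouse, with the mean ± SD beside the points. In each gene the levels overlap. The differences are 0.32, 0.52 and 0.32 for Trmt1l, BC034090 and Cyb5r1, whose points spread less than those of Serpinb11 and Chil1. The low range of Cyb5r1 encloses its high range.

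Some genes had small differences with an SE that was small beside them. Trmt1l, a gene related to the tRNA methyltransferase gene Trmt1, ran from 8.18 through 8.59 to 8.99 in low and from 8.44 through 8.91 to 9.29 in high mice. Its difference was 0.32 (SE 0.031, adjusted p = 1.78e-14). BC034090, a gene known by its clone name, ran from 4.63 through 5.39 to 6.03 in low and from 5.15 through 5.91 to 6.44 in high mice, a difference of 0.52 (SE 0.049, adjusted p = 1.27e-14). Cyb5r1, of the cytochrome b5 reductase family, ran from 7.06 through 7.60 to 8.41 in low and from 7.57 through 7.96 to 8.32 in high mice, a difference of 0.32 (SE 0.041, adjusted p = 1.24e-08). In low mice the top of the Cyb5r1 range reached as high as in high mice, whereas few high mice fell to the low median.

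Each called probe set was then split by the same k-means, and the mice on the side that matched Cntn2 were counted. Because called genes had to differ between the levels, a count above 57.5 of the 115 mice is set by their choice, and only the order of the counts is described. Over the 61 called probe sets of chromosome 1 the median was 79 mice, with a range of 68 to 99. The count was 99 for Trmt1l, 98 for BC034090 and 96 for Cyb5r1. It was 91 for Ccdc93, which acts in endosomal recycling, 91 for Snrpe and 91 for Sft2d2. It was 90 for Tmem9, which encodes a lysosomal membrane protein, 90 for Pign, which acts in the synthesis of glycosylphosphatidylinositol anchors, and as many for Pfkfb2, which sets the level of the glycolytic activator fructose 2,6-bisphosphate. Ccdc93 was higher by 0.23 (SE 0.028, adjusted p = 1.78e-09) and Tmem9 by 0.28 (SE 0.037, adjusted p = 3.80e-08), while Pign differed by −0.20 (SE 0.032, adjusted p = 9.79e-06). Genes with high counts lay on both sides of Cntn2, from Pign at 106 genes before it to Sft2d2 at 188 genes after it, and the closest, Tmcc2 at 4 genes, did not have the highest count.

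**Figure D5:**
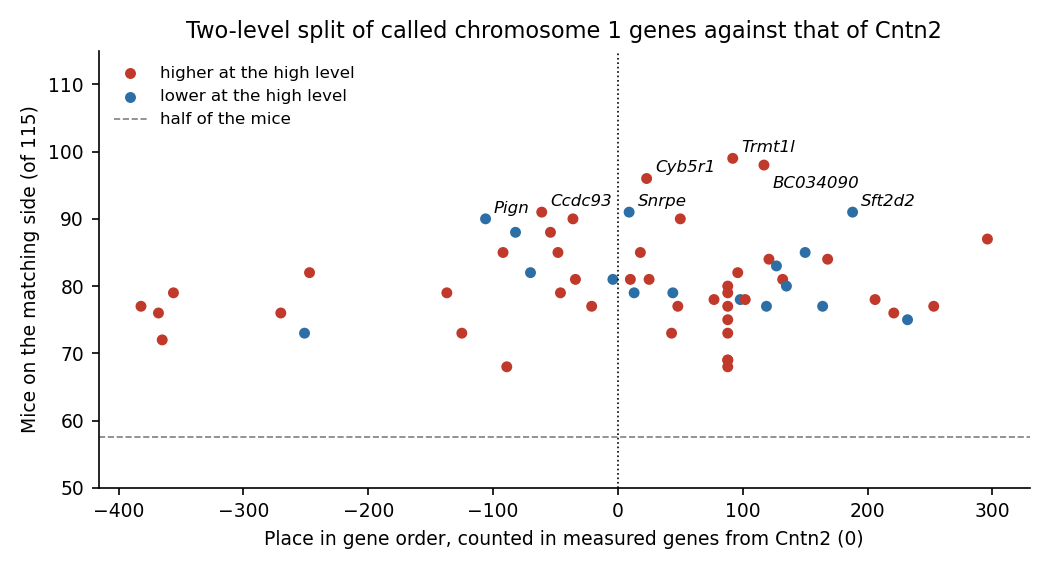
Number of mice, of 115, whose side in a gene's own split matches their Cntn2 level (vertical axis), for each called and placed probe set of chromosome 1, against gene order from Cntn2 at 0. Red is higher and blue lower at the high level, and the dashed line marks 57.5 mice; Trmt1l (99), BC034090 (98) and Cyb5r1 (96) are the highest, and counts at the far left and right lie below them.

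Mouse by mouse, 8 of these genes (2 before and 6 after Cntn2, without Pfkfb2) were compared with the Cntn2 level. They were chosen for matching Cntn2 in the most mice. High agreement with Cntn2, and between the genes, is therefore largely set by that choice, and the counts are descriptions. In 32 mice all 8 genes were on the matching side, and in 64 mice 7 or 8 were. In 6 mice 4 or fewer matched. The 2 genes before Cntn2 both matched in 73 mice and the 6 after it all matched in 43. In 3 mice all 6 later genes matched and neither earlier gene did, and in 2 mice both earlier genes matched and at most 1 later gene did. The 28 pairs among the 8 genes matched each other in 70 to 94 mice. The low mouse nearest the boundary, with a Cntn2 value of 6.311, matched in 1 of the 8 genes, and no other mouse matched in so few. The next low mice, at 6.177, 6.023 and 6.014, matched in 7, 8 and 7 genes. The high mouse nearest the boundary, at 6.445, matched in all 8. The next high mice, at 6.595, 6.611, 6.683, 6.684 and 6.694, matched in 3, 5, 4, 7 and 5 genes. Among these mice just above the boundary the match thus varied, from 3 to 8 of the genes.

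The largest difference on the array was in a probe set with no gene symbol, 10399675. It ran from 4.55 through 6.23 to 8.32 in low and from 6.38 through 8.19 to 8.97 in high mice, a difference of 1.89 (SE 0.135, adjusted p = 4.64e-22). Its own split matched the Cntn2 level in 91.3% of mice, more than for any named gene, and of the mice that did not match 9 were low and 1 was high. Its place in the genome is not known here.

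On other chromosomes a single gene was called. Olfr401, an odorant receptor gene on chromosome 11, ran from 5.41 through 6.12 to 6.81 in low and from 5.43 through 6.34 to 6.84 in high mice, a difference of 0.24 (SE 0.059, adjusted p = 0.0277). It was 0.19 (SE 0.065, adjusted p = 0.387) on plate 1 alone and 0.51 (SE 0.153) on plate 2 alone, and its adjusted p was over the threshold in 6 alternatives besides plate 2 alone, from 0.0561 with array weights to 0.387 on plate 1 alone. Hipk2, the kinase the series is titled for, differed by 0.12 (SE 0.065, adjusted p = 0.649).

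Contactins, the partners of contactin-2 and glia gave no call, against 51 of 18771 genes (0.272%) when each gene was read by its probe set with the highest mean. At that share most lists this short hold no call, so its absence says little about them. An unadjusted limma p under 0.05 was reached by 3 of 12 contactin and Caspr genes (25%), 3 of 21 partners (14.3%) and 1 of 8 glial genes (12.5%). Over all genes the share was 7.18%, and the difference in shares was not tested. The 12 contactin and Caspr genes had differences between −0.05 and 0.09, with a median of −0.015, beside 0.003 over all genes. Cntn3 (0.09, adjusted p = 0.581) and Cntn5 (0.08, adjusted p = 0.524) had the smallest p among them. The 21 juxtaparanode and node partners had a median of −0.007 and a range of −0.17 to 0.21, the highest being Kcna1 (SE 0.083, adjusted p = 0.527), which encodes the potassium channel Kv1.1. The 8 Schwann cell and myelin genes measured had a median of −0.008, from −0.20 for the neurotrophin receptor gene Ngfr (adjusted p = 0.622) to 0.19 for the cadherin gene Cdh19 (adjusted p = 0.592). Their mean log2 level ran from 6.65 through 7.34 to 7.93 in low and from 6.61 through 7.35 to 7.77 in high mice, so the ranges nearly coincided.

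The lists of cell types and responses held no call either. In all, 188 genes of 18 lists were measured, 0 were called by limma, 18 had an unadjusted p under 0.05 (9.57%, beside 7.18% of all genes), and the smallest adjusted p was 0.372. That gene was Cr2, the complement receptor gene of B cells and follicular dendritic cells, which lies on chromosome 1 at 445 genes after Cntn2. Its difference was 0.70 (SE 0.234), against a median of −0.157 for the 9 B cell genes, among them Cd79b with −0.24 (adjusted p = 0.624). White adipocyte genes had a median of 0.078, with Retn at 0.15 (adjusted p = 0.42) and Adipoq at 0.11 (adjusted p = 0.602). Thermogenic genes had a median of −0.27, with Ucp1 at −0.80 (95% interval −1.55 to −0.05, adjusted p = 0.602) and Dio2 at −0.27 (adjusted p = 0.604). Luminal genes included Esr1 at 0.11 (adjusted p = 0.604) and Cdh1 at 0.24 (adjusted p = 0.711). T cell genes had a median of −0.204, with Cd6 at −0.21 (adjusted p = 0.604) and Cd3d at −0.23 (adjusted p = 0.609), and interferon response genes included Rsad2 at −0.20 (adjusted p = 0.588) and Zbp1 at −0.19 (adjusted p = 0.602). The intervals are wide for Ucp1, whose values ran from 5.52 to 12.64 in low mice.

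One-sided lists were common without a call. Members of a list were read in the same mice and can vary together, so their number does not count independent observations. The mean was higher in high mice for 12 of 12 luminal, 10 of 10 progenitor and fibroblast, 11 of 11 macrophage, 10 of 10 blood endothelium and 5 of 5 lymphatic endothelium genes, and lower for 9 of 9 T cell, 11 of 11 cell cycle and 10 of 10 interferon response genes, beside 9896 higher and 8875 lower of all 18771 genes. The medians of the other lists were 0.071 for adipocyte progenitors and fibroblasts, 0.095 for basal epithelium, −0.123 for milk proteins, −0.027 for skeletal muscle, 0.085 for macrophages, −0.025 for dendritic cells, 0.065 for blood endothelium, 0.089 for lymphatic endothelium and −0.072 for the cell cycle.

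What remained of Cntn2 inside each level was set against all genes in another model. The Cntn2 value had an SD of 0.306 within the low and 0.382 within the high level. The slope, in log2 units of the gene for each log2 unit of Cntn2 inside a level, was called for 6 of 28203 probe sets (0.0213%), all rising, while 13.3% had an unadjusted p under 0.05. None of the 6 was on chromosome 1. They were C6, a gene of the terminal complement pathway (slope 0.72, SE 0.153), Ptchd4 (0.65, SE 0.138), Synpo2, which encodes an actin-binding protein (0.58, SE 0.124), Apba1, which encodes a neuronal adaptor protein (0.36, SE 0.075), Pik3r6, which encodes a phosphoinositide 3-kinase regulatory subunit (0.32, SE 0.068), and the potassium channel gene Kcnq1 (0.20, SE 0.043). Their adjusted p lay between 0.0449 and 0.0474. None of them differed between the levels beyond the threshold, the largest difference being 0.19 for C6 (adjusted p = 0.654). The count was 0 without covariates and 0 with the cell content means as covariates, where the adjusted p of Apba1 was 0.0732 and 0.0849.

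The difference between levels was read on each plate. All 81 called probe sets had the same sign on plate 1 and on plate 2. They were called on the arrays of both plates together, so shared signs and small p on either plate are partly set by that choice. On plate 1 alone 61 of the 81 were called again. On plate 2 alone, with 13 high and 9 low mice, none was called, and 34 of the 81 had an unadjusted p under 0.05, beside 2.71% of all probe sets. For example, the difference for BC034090 was 0.51 (SE 0.051) on plate 1 and 0.54 (SE 0.155) on plate 2, that for Serpinb11 was 1.69 (SE 0.251) and 1.29 (SE 0.626), and that for Snrpe was −0.32 (SE 0.046) and −0.28 (SE 0.136). The interaction of level with plate was called by limma for 0 probe sets (5.73% had an unadjusted p under 0.05). The interaction of level with lymph cluster, tested between clusters 1 and 2, was also called for 0 (2.75% had an unadjusted p under 0.05).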

How the data were processed

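The deposited values are log2 signals; the submitters' processing notes name RMA and oligo, with tool versions not given in the sources used here. Per the labels' protocols, RNA was extracted with Trizol and biotin-labelled cRNA was hybridized. The table held 28204 probe sets: 21141 with 1 symbol in the platform annotation, 1881 with several and 5182 with none. Gene identifiers gave current symbols from RefSeq (GRCm38.p6, used for names, chromosomes and gene order), which matched 21111 and left 18772 genes. Genes starting in the first 3 Mb, where unplaced sequences fall, were left out of the gene order.

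Cntn2, read by 1 probe set, was left out of the genes tested. limma 3.58.1 (R 4.3.3) fitted level, array plate and lymph cluster to all 115 arrays with no filter; calls had an adjusted p below 0.05. The 95% intervals come from the same fit. Members and lists were chosen with earlier results of these data known, so list counts are descriptions. Named genes were Cntn2, Hipk2, its 10 measured neighbours on each side, the 10 largest called rises and falls on its chromosome and up to 8 elsewhere, the 8 called genes with the best-matching split, called slopes, and up to 4 members per list. Only the first 2 members of 9 lists were named, and a few genes such as Pfkfb2, Cflar and the unnamed probe set were added; both choices were made after values were seen. Predicted and RIKEN genes were not taken among the largest changes.

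On simulated data for the comparison of levels over 28203 probe sets, changes of 0.1, 0.25 and 0.5 were recovered for 12.5%, 80.0% and 98.5% of changed probe sets, and 9 of 138 calls were false. For the slope the shares were 3.12%, 47.1% and 92.4%, for the interaction with plate 0, 5.71% and 57.6%, and for that with lymph cluster 0, 15.7% and 78.8%, so changes near 0.1 were mostly below what these tests could call. The simulated noise was drawn independently for each probe set. Probe sets that vary together across mice were thus not simulated, and the count of false calls holds for that setting alone. Mixtures were fitted with mclust 6.1.1. Alternatives changed covariates, plates, filter, normalization, weights, moderation, scale, level definition and cell content.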

Additional observations from a re-analysis of the deposited data

Results flagged for a closer look

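Among the named genes, the highest or lowest mouse of lymph cluster 3 was compared with the others of its level, in groups of 4 high or 6 low mice. Of 140 such groups, 18 held a mouse far from the rest, by Dixon's test at 95%. Chance alone flags about 1 in 20 groups, and genes share mice.

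Among the 6 low mice, the highest stood apart at 10.50 for Chil1 (next 8.27), 7.59 for Serpinb10 (next 5.43), 8.30 for Pkp1 (next 6.54), 7.35 for Ptchd4 (next 6.16) and 9.54 for Cdh1 (next 8.59). The lowest of the 6 low mice stood apart at 5.05 for Nfasc (next 5.27), 7.70 for Ppp1r15b (next 8.16), 8.20 for Csprs (next 8.98), 9.07 for Sft2d2 (next 9.74), 7.11 for Tor3a (next 7.84), 12.01 for Retn (next 12.34) and 7.99 for Cd79b (next 9.65).

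Among the 4 high mice, the highest stood apart at 8.18 for Csprs (next 7.98) and 7.27 for Kcna1 (next 6.52). The lowest stood apart at 7.73 for Rbbp5 (next 8.03), 9.94 for Zc3h11a (next 10.18), 7.07 for Pik3r6 (next 7.34) and 4.15 for Cntn3 (next 4.77). Without lymph cluster 3 the comparison of levels gave 82 calls, 71 of them among the 81.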

How the results depend on the processing

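Each of the 81 calls kept its direction wherever it was tested, in all 17 alternatives. The number of calls lay between 69 and 109, except for 0 on plate 2 alone (where calls on chromosome 1 and on other chromosomes were also 0) and 51 with 1 probe set per gene, where fewer probe sets were tested. Calls on other chromosomes, 1 in the report, numbered 3 on plate 1 alone, 3 after repeated quantile normalization, 4 with arrays centred on the median, 2 with array weights, 2 without the 5 mice of each level nearest the boundary, 5 for a slope on the Cntn2 value, 4 with cell content means, and 3 with levels split at the widest gap between the level means, an alternative chosen after seeing the data that moved 5 mice (67 high). The cause of these changes was not tested. Among list genes, 1 was called with cell content means, Cr2 (0.726), whose own list is one of those means. The slope within levels gave 0 calls without covariates, 0 with plate alone, 0 with cell content means, 23 on plate 1 alone and 173 with array weights, against 6. For single named genes no call reversed, and 69 of the gene-by-alternative values lost their call, 28 of them on plate 2 alone. Tmem81, not called in the report, was called with cell content means (adjusted p = 0.0275). A split at the widest gap of all was not run because it would set 1 mouse apart. No paired analysis was possible because replicate numbers only follow accession order. On plate 2 the 22 arrays limit what can be called.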
